A study of Mus musculus with 10 samples.

Results

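The Gzme-high mutant cells of the 2-week lungs were RFP+ cells that held at least 10 unique transcript counts (UMIs) of Gzme, the gene of granzyme E. They were taken from both 2-week RFP libraries of the mutant mouse line by one rule: at least 1000 detected genes, at most 50000 UMIs, at most 15% mitochondrial UMIs, no UMI of the leukocyte gene Ptprc, and 10 or more UMIs of Gzme. The rule found 474 cells, 346 in replicate 1 and 128 in replicate 2, among 6925 Ptprc-negative cells of these libraries that passed the quality limits and 32698 such cells, Ptprc-positive ones included, in all 10 libraries. They made up 8.45% of the 4096 eligible cells of replicate 1 (exact 95% interval 7.61 to 9.34%) and 4.52% of the 2829 of replicate 2 (3.79 to 5.36%). The cells were thus chosen by their Gzme and Ptprc UMIs, and the level of Gzme describes them and is no finding. Another 24 and 10 barcodes had 10 or more Gzme UMIs but did not meet the other limits. The name of the cells also rests on Spp1, Mcpt8, Mcpt2, Mcpt1 and Mmp13, which earlier work on the same libraries picked, so these genes are described without a test.

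The study followed alveolar type 2 (AT2) cells of the mouse lung after activation of an oncogenic mutation. In the mutant mouse line, which carries Sftpc-CreERT2 and a multicolour reporter, tamoxifen activates a Cre recombinase under the Sftpc promoter, which is active in AT2 cells, and recombined cells turn RFP+ and mutant or YFP+ and wildtype. Both libraries came from EpCAM+RFP+ cells of the distal lung, sorted 2 weeks after 3 doses of 0.2 mg tamoxifen per gram body weight, which the methods state for all mice of the single-cell experiments. The methods give adult mice of 8 weeks on a mixed background and at least 2 lungs pooled per sample. The other libraries were 2 of YFP+ cells from 2-week lungs of the mutant line, 2 each of RFP+ and YFP+ cells at 4 days, and 1 each of RFP+ and YFP+ cells from Sftpc-CreERT2; R26R-Confetti mice, in which both colours are wildtype. Replicate 1 held 79927159 UMIs in 4859 barcodes and replicate 2 held 51687559 UMIs in 4429 barcodes. The labels do not say which mice entered which replicate, so p-values measure the spread between these libraries.

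Granzymes are serine proteases that cytotoxic lymphocytes store in granules and release into target cells, and mast cell proteases are their close relatives in mast cells and basophils. In the mouse, the genes of both groups lie side by side in one locus on chromosome 14. AT2 cells make surfactant and renew the alveolar epithelium. On injury, or on oncogene activation, they can pass through transitional states marked by keratins, Cldn4 and Itga2.

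Gzme lies at chr14:56117626-56120625 on the minus strand (GRCm38; ENSMUSG00000022156). The locus from Cma1 to Gzmb spans 320.81 kb at chr14:55941451-56262260 and holds 26 annotated genes, 15 of them protein coding. Mcpt8 (chr14:56082166-56085273, minus strand), Mcpt2 (chr14:56042041-56044642, plus strand) and Mcpt1 (chr14:56017971-56020384, plus strand) lie on the side of Cma1, and Gzmd (chr14:56129556-56132608, minus strand) is the neighbour 8931 bases away on the side of Gzmb. The 250 bases before the start of 4 of these genes are printed here because Gzme, Mcpt8 and Mcpt1 had many UMIs in the cells and Gzmd, a near copy of Gzme, hardly any (RefSeq, GRCm38.p6; 5′ to 3′ along the gene; at chr14:56120626-56120875, chr14:56132594-56132843, chr14:56085198-56085447 and chr14:56017714-56017963). Capitals mark matches to the motifs searched on both strands.
Gzme: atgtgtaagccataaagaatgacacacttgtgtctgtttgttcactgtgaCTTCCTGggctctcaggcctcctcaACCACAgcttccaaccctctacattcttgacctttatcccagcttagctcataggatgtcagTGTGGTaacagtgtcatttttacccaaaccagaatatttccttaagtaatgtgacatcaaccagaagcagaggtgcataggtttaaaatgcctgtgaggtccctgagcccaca
Gzmd: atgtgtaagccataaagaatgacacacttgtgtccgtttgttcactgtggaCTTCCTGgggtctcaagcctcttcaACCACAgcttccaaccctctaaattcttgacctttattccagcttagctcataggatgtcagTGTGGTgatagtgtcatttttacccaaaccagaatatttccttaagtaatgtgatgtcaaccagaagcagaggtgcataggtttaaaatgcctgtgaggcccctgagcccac
Mcpt8: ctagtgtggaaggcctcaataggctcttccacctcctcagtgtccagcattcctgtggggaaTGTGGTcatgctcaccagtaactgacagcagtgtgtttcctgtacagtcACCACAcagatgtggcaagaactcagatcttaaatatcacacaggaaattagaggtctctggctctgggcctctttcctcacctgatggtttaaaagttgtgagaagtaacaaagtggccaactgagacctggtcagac
Mcpt1: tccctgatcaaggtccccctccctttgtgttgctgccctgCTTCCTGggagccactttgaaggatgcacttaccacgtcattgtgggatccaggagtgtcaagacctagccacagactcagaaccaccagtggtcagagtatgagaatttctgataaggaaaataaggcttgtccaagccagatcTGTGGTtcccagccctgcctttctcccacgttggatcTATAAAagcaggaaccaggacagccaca

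The letters searched were TGANTCA for AP-1, TGTGGT for RUNX, NAGGAAG for ETS, TTCNNNGAA for STAT and TATAAA for a TATA box, found in 6.73%, 14%, 29.5%, 7.04% and 12.3% of 32536 distinct promoters of the same length. Of the 15 protein-coding genes, 13 had a promoter in the RefSeq table. Gzme and Gzmd were identical at 94.8% of aligned bases, and each held a RUNX match on either strand (175 and 113 bases before the start in Gzme, 174 and 112 in Gzmd) and an ETS match (200 and 199 bases before the start). Mcpt8 held RUNX matches 188 and 139 bases before its start, and Mcpt1 held one at 65 bases, an ETS match at 210 and a TATA box at 28. The Mcpt8 and Mcpt1 promoters were 50.7% and 51.1% identical to that of Gzme. These matches describe letters, not bound sites.

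UMIs of the locus came almost all from 4 of its genes. Summed over the 346 cells of replicate 1 there were 42689 UMIs of Gzme, 15823 of Mcpt8, 7889 of Mcpt2 and 4390 of Mcpt1. The 128 cells of replicate 2 gave 7259, 1254, 182 and 77 UMIs of the same genes. No UMI of Gzmb, Gzmc, Gzmf or Gzmg, other granzymes of the locus, was found in any of the 474 cells. Gzmd had 7 and 3 UMIs, Ctsg, which lies between Mcpt8 and Gzme, 15 and 0, and Gzmn 25 and 2. Cma1, Cma2, Mcpt4 and Mcpt9 had between 0 and 9 UMIs in each library. Among the 3297 Gzme 0 cells of replicate 1, Mcpt8 had 360 UMIs, Mcpt2 126 and Mcpt1 26, and among the 2422 of replicate 2 they had 169, 26 and 15. Of the 50-base windows of the Gzme transcript, 20.65% occur also in Gzmc, Gzmd, Gzmg or Gzmn, and of the 90-base windows 0.967% do, so a part of reads could not be told apart between these genes. The transcripts of Mcpt1, Mcpt2 and Mcpt8 shared no such window with another gene.

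**Figure D1:**
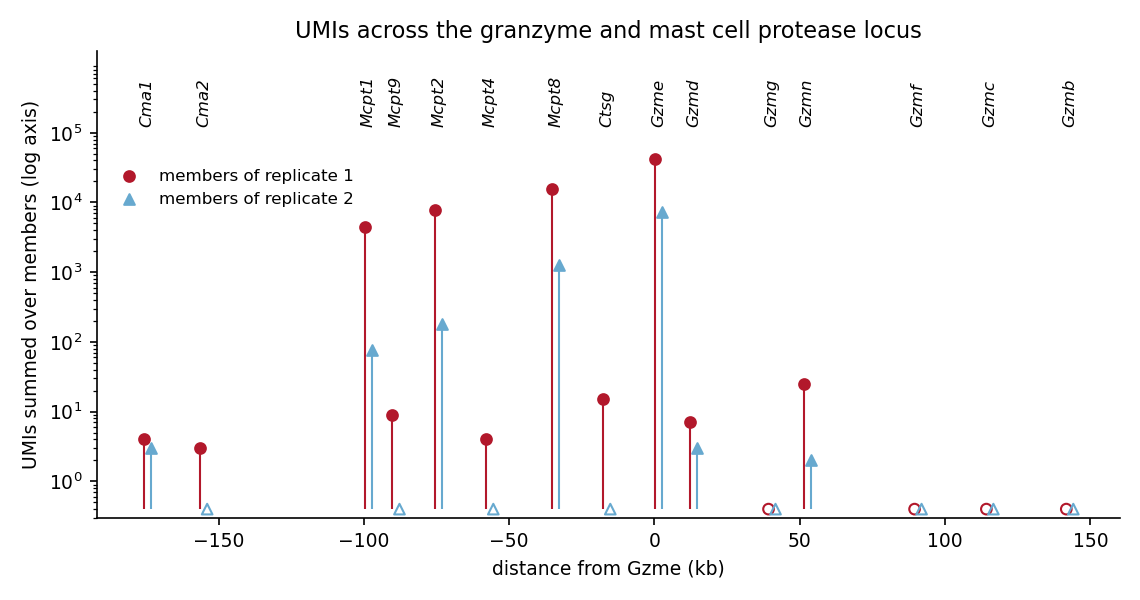
UMIs summed over the Gzme-high cells of each library (log axis) for the 15 protein-coding genes of the locus, by distance from Gzme in kb. Circles are replicate 1 and triangles replicate 2, drawn slightly apart, and open symbols on the base line stand for 0 UMIs. Gzme, Mcpt8, Mcpt2 and Mcpt1 stand above all others, with 77 to 42689 UMIs, while Gzmg, Gzmf, Gzmc and Gzmb have none.

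The number of Gzme UMIs per cell ran from 10 to 740 in replicate 1, with a median of 65, and from 10 to 592 in replicate 2, with a median of 28. At least 100 UMIs were held by 140 cells (40.5%) of replicate 1 and by 17 (13.3%) of replicate 2. The 474 cells held 97.8% and 90.7% of all Gzme UMIs in Ptprc-negative cells of their libraries. At least 1 Gzme UMI was seen in 19.5% and 14.4% of Ptprc-negative cells. In Ptprc-positive cells, whose identity was not checked further, it was seen in 8 of 149 (5.37%, 2.35 to 10.3%) and 12 of 699 (1.72%, 0.890 to 2.98%), at a median of 8610 and 12711 UMIs per cell. The Gzme-high cells were deeper than the rest, with a median of 22406 and 17619 UMIs against 14700 and 12620 in Gzme 0 cells, and the part of depth in what follows was not tested beyond the settings given in the closing section.

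The label was checked against markers of the cell types that normally use these proteases. Of 14 natural killer and T cell markers, 10 were at 0 UMIs in the cells of replicate 1 and 11 in those of replicate 2, Cd3d, Cd3e, Nkg7 and Ncr1 among them. Of the 247 and 55 UMIs of this list, 233 and 53 came from Trbc2, a T cell receptor constant gene, which was seen in 26% and 14.1% of the cells (TMM-scaled CPM 29.1 and 21.1 against 0.557 and 5.14 in Gzme 0 cells, adjusted p = 0.120). Trbc2 was called higher with the sexes apart (adjusted p = 0.0458). Dlk1-high Gzme 0 cells held 0 UMIs of it in both libraries. Of 11 mast cell and basophil markers, 9 and 10 were at 0, Cpa3, Kit and Fcer1a among them, and all but 1 of their UMIs came from Hdc, the histidine decarboxylase gene, which Gzme 0 cells also held (TMM-scaled CPM 100 and 203 against 250 and 220). Macrophage markers summed to 16.5 and 106 unscaled CPM against 35.7 and 183 CPM in Gzme 0 cells. Epithelial identity genes summed to 8418 and 9475 CPM against 3930 and 6033, and every Gzme-high cell had at least 3 UMIs of them. The cells were thus epithelial by their genes. Beside the proteases, Trbc2 and Hdc gave nearly all their UMIs of lymphocyte and mast cell markers.

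Within their libraries, the Gzme-high cells overlapped with cells that carried transitional genes. A UMI of both Itga2, a collagen-binding integrin chain, and Cldn4, a tight junction claudin, was found in 278 (80.3%) and 104 (81.3%) of them, against 13.2% and 22.8% of Gzme 0 cells. Dlk1, a ligand-like membrane protein of fetal tissue, reached 10 UMIs in 114 cells (32.9%) of replicate 1 and in 11 (8.59%) of replicate 2. The share of replicate 1 was that of a mixed pool of mice, as the sex of the cells showed.

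Replicate 1 pooled female and male mice. A cell was called female if it had a UMI of Xist and none of 4 Y-linked genes, and male in the opposite case. Of the 324 Gzme-high cells of replicate 1 with a call, 269 were female (83.0%, 78.5 to 86.9%), against 29.7% of Gzme 0 cells (27.9 to 31.5%) and 27.3% of Gzme 0 transitional cells (22.7 to 32.4%). Gzme-high cells made up 23.2% of the 1158 female cells of that library (20.8 to 25.8%) but 2.61% of its 2111 male cells (1.97 to 3.38%). In replicate 2 all 97 Gzme-high cells with a call were male, and they made up 4.96% of 1954 male cells (4.04 to 6.02%). With 1 mixed pool, the sex of a mouse cannot be told apart from other differences between mice, and these intervals cover counting error only.

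The level of Gzme differed the same way within the members. The median was 99 UMIs in the female cells of replicate 1, 25 in its male cells and 34 in the male cells of replicate 2. Mcpt8, a basophil protease, was at 2436, 327 and 506 CPM in the same sets (unscaled CPM here and in the next sentences), and was seen in 90.7%, 56.4% and 59.8% of the cells. Mcpt2 was at 1261, 39.2 and 71.0 CPM. Mcpt1 was at 708, 3.11 and 33.1 CPM, seen in 48.3%, 7.27% and 5.15% of the cells. Spp1, which encodes the secreted matrix protein osteopontin, was at 18496, 3162 and 5994 CPM. Both sets of male cells lay below the female set for all of these genes. Dlk1 was at 1971, 115 and 319 CPM. Not all genes followed this order: Mmp3 was at 256, 314 and 161 CPM, and Gkn2, a gastric mucosa protein, at 663, 144 and 563 CPM. Because most members of replicate 1 were female and most of its Gzme 0 cells male, the comparisons with all Gzme 0 cells and with transitional cells were also made within library and sex. That setting was added after seeing the data. The comparison with Dlk1-high cells was not made within sex.

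**Figure D2:**
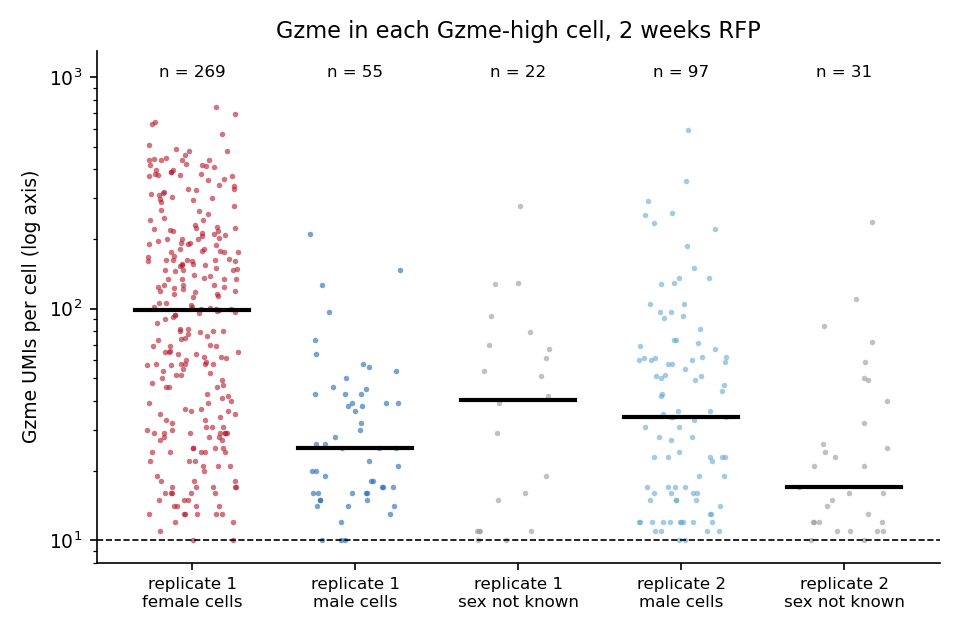
Gzme UMIs in each of the 474 Gzme-high cells (log axis), by library and sex of the cell. Each point is 1 cell, bars are medians, and the dashed line is the limit of 10 UMIs that chose the cells. The female cells of replicate 1 have a median of 99 UMIs, against 25 and 34 in the male cells of replicates 1 and 2, and all sets overlap.

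The first comparison asks how the Gzme-high cells differed from the Gzme 0 cells beside them. UMIs were summed over the cells of each class in each library, which gave 2 sums per class, and tested with edgeR with the library as a block. Levels are TMM-scaled CPM, UMIs per 1000000 after edgeR's scaling between sums. Of the label genes, Spp1 was at 15197 CPM in the Gzme-high cells of replicate 1 and 5693 in those of replicate 2, against 160 and 499 in Gzme 0 cells. Mcpt8 was at 1978 and 499 against 6.69 and 5.20, Mcpt2 at 986 and 72.5 against 2.34 and 0.801, and Mcpt1 at 549 and 30.7 against 0.483 and 0.462. Mmp13, a collagenase, was at 260 and 119 against 10.2 and 5.91. For each of these genes both Gzme-high sums lay above both Gzme 0 sums, and Mcpt8, Mcpt2 and Mcpt1 differed between the replicates more than Mmp13 did.

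Of 12898 genes tested, 276 (2.14%) passed an adjusted p of 0.05, 74 higher (0.574%) and 202 lower (1.57%), while 3117 had an unadjusted p under 0.05. The number of calls rested on the fit. Without the library block no gene passed (1724 unadjusted, smallest adjusted p 0.0504), and without the cells holding a UMI of Col1a1, Pecam1 or Foxj1 3 genes passed. With DESeq2 893 passed, 466 higher and 427 lower. With the library block split by sex, called the sexes apart in what follows, 426 of 11676 genes (3.65%) passed. For this reason the level in each library is given beside each test.

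The largest rises joined a matrix protease, plasma and gastric proteins and an adhesion receptor. Mmp3, the metalloprotease stromelysin, was at 314 and 174 CPM in the Gzme-high cells and at 3.1 and 3.76 in Gzme 0 cells, a log2 fold change of 6.12 ± 0.35 (SE, n = 2 libraries, adjusted p = 0.0272). Apoa1, the main protein of high-density lipoprotein, was at 178 and 156 against 2.30 and 4.77 (5.65 ± 0.37, adjusted p = 0.0272). Gkn2 was at 549 and 598 against 9.62 and 30.6 (5.06 ± 0.45, adjusted p = 0.0308). Both libraries thus gave high sums of these 3 genes in the Gzme-high cells, with no overlap between the sums of the classes. Over single cells the classes did overlap. Mmp3 was seen in 18.2% and 8.59% of the Gzme-high cells, Apoa1 in 32.1% and 24.2% and Gkn2 in 47.7% and 44.5%. Vcam1, an adhesion receptor for leukocyte integrins, was at 217 and 232 against 6.84 and 22.5 (4.17 ± 0.46, adjusted p = 0.0414). Tmem252, a membrane protein, was at 265 and 74.9 against 16.4 and 9.27 (3.54 ± 0.29, adjusted p = 0.0272). Ckb, brain-type creatine kinase, was at 132 and 208 against 12.4 and 46.7 (2.78 ± 0.34, adjusted p = 0.0428). Within library and sex, the log2 ratios of Mmp3 were 6.91 in female cells of replicate 1, 6.27 in its male cells and 4.96 in male cells of replicate 2, and those of Gkn2 were 5.75, 3.88 and 3.96, so these rises were present in each set. Tmem252 differed more between the sets, with 3.69, 1.39 and 3.34.

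Smaller rises were seen for Angptl4, an inhibitor of lipoprotein lipase (log2 fold change 2.23, adjusted p = 0.0424), Ly6a, a surface antigen of progenitor cells (2.01, adjusted p = 0.0364), Sgms2, a sphingomyelin synthase (1.98, adjusted p = 0.0475), and Igfbp4, a binding protein of insulin-like growth factors (1.95, adjusted p = 0.0272). Label genes apart, which are described without a test, these 10 genes were the rises that the rule for named genes picked. The rule asked for a call, the same direction in both libraries and at least 50 CPM. With the sexes apart, the calls of Mmp3 (adjusted p = 0.0137) and Gkn2 held. The calls of the other rises in that setting are not given here. Of the 86 genes followed through it, rises and falls together, 20 lost their call.

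**Figure D3:**
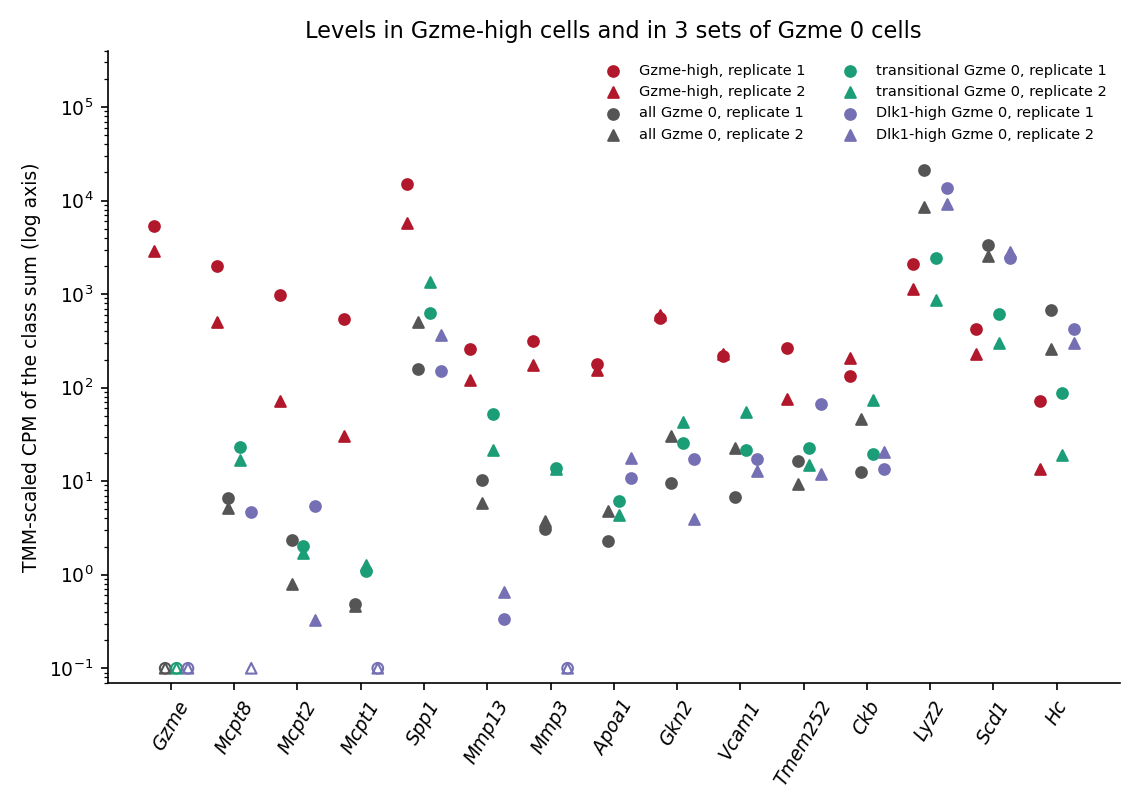
TMM-scaled CPM (log axis) of 15 genes in the summed UMIs of Gzme-high cells, all Gzme 0 cells, transitional Gzme 0 cells and Dlk1-high Gzme 0 cells, 1 symbol per library (circles replicate 1, triangles replicate 2, open symbols 0 UMIs or under 0.1 CPM). Each class was scaled within its own comparison. For the 12 genes on the left both Gzme-high sums lie above every Gzme 0 sum, whereas Lyz2, Scd1 and Hc are low in the Gzme-high and transitional cells of both libraries.

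The promoters of the matrix proteases were read because both genes were high in the same cells; they lie at chr9:7445572-7445821 (Mmp3) and chr9:7272264-7272513 (Mmp13), plus strand, with the motifs in capitals as above.
Mmp3: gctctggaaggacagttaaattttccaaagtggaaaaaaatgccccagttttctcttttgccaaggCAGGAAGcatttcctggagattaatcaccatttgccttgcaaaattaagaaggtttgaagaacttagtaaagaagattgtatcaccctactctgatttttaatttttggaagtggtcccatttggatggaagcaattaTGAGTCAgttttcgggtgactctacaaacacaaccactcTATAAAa
Mmp13: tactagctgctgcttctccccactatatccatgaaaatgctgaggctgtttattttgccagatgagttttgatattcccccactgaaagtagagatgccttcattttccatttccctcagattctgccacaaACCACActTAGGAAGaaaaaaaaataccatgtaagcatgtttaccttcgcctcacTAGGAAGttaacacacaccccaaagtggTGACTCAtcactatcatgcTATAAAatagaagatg

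Each of them held an AP-1 match (46 bases before the start in Mmp3, 35 in Mmp13) and TATAAA (7 and 16 bases), and Mmp13 also a RUNX match at 118 bases. None of the promoters of Gzme, Gzmd, Mcpt8 and Mcpt1 held the AP-1 letters. The AP-1 factors themselves did not pass the test: of 11 tested, 0 were called, with Junb at 1260 and 688 CPM against 714 and 556 (adjusted p = 0.141) and Fos at 1643 and 826 against 1181 and 696 (adjusted p = 0.171). Runx1 was at 95 and 72.1 CPM against 64.5 and 69.8 (adjusted p = 0.345).

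Genes of the AT2 programme fell. Of 16 AT2 genes, 7 were called lower and 0 higher (1.57% of all genes were called lower), and 15 were lower in both libraries, with a median log2 fold change of -1.38 against -0.04 over all genes (38.3% of all genes were lower in both). With the sexes apart 3 were called lower, Lyz2, Sftpc and Muc1, and the other 6 calls were lost, at adjusted p from 0.0520 for Napsa to 0.0715 for Slc34a2. Lyz2, lysozyme, fell from 21361 and 8526 CPM to 2107 and 1130 (-3.13 ± 0.15, adjusted p = 0.0248), and Hc, complement C5, from 681 and 259 to 72.6 and 13.5 (-3.65 ± 0.28, adjusted p = 0.0272). The surfactant lipid transporter Abca3 (-1.56, adjusted p = 0.0346), the lipid-remodelling enzyme Lpcat1 (-1.57, adjusted p = 0.0272), the phosphate transporter Slc34a2 (-1.53, adjusted p = 0.0364), the surfactant-processing protease Napsa (-1.22, adjusted p = 0.0491) and the transcription factor Etv5 (-1.91, adjusted p = 0.0371) fell as well. Sftpc, surfactant protein C, was at 14004 and 28158 CPM against 82767 and 75501 (adjusted p = 0.0580). The median over the AT2 genes was -2.22 in female cells of replicate 1, -0.69 in its male cells and -0.96 in male cells of replicate 2, and 15 of 16 genes were lower in each set.

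Other large falls included an enzyme of lipid synthesis, a reductase and a secreted protein. Scd1, the stearoyl-CoA desaturase, fell from 3324 and 2542 CPM to 423 and 228 (-3.22 ± 0.17, adjusted p = 0.0272). Cbr2, a lung carbonyl reductase, fell from 464 and 122 to 20.3 and 4.78 (-4.56 ± 0.15, adjusted p = 0.0147), and was the named gene that stayed called without cells holding Col1a1, Pecam1 or Foxj1. Mme, a membrane endopeptidase, was at 83.5 and 30.9 CPM in Gzme 0 cells and at 3.63 and 0.398 in the Gzme-high cells. Retnla, a resistin-like secreted protein, fell from 1403 and 478 to 205 and 21.9 (-3.51 ± 0.44, adjusted p = 0.0431). S100g, Lyz1, Chia1, Itih4, Ces1d, Cox6a2, Acoxl, Mlc1 and Lrp2 fell with log2 fold changes from -3.97 to -2.75. All of these genes were lower in both libraries. Mme (29 and 1 UMIs) and Cox6a2 (111 and 1 UMIs) had few UMIs in the Gzme-high cells. They passed the filter on low counts through the Gzme 0 class, and their calls are not used here. With the sexes apart, the calls of Retnla (adjusted p = 0.0629), S100g (0.0679), Chia1 (0.0577), Cox6a2 (0.0522), Acoxl (0.0695) and Lrp2 (0.0679) were lost.

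Some antigen presentation genes were called lower than in all Gzme 0 cells. Against transitional cells 0 of 7 MHC class II genes (median 0.40) and 0 of 10 class I genes (median -0.02) were called. The difference between the comparisons was not tested. Against all Gzme 0 cells, of 7 MHC class II genes, 5 were called lower, and all 7 were lower in each of the library and sex sets (27.4% of all genes were lower in all 3). H2-Aa fell from 778 and 583 CPM to 189 and 180 (-1.87 ± 0.14, adjusted p = 0.0272), H2-Ab1 from 694 and 596 to 227 and 213 (-1.55 ± 0.12, adjusted p = 0.0272), and Cd74, the invariant chain, from 4934 and 3643 to 2193 and 1801 (-1.09 ± 0.11, adjusted p = 0.0364). Of 11 MHC class I genes, 2 were called lower, B2m (-1.22, adjusted p = 0.0424) and Psmb8, an immunoproteasome subunit (-1.10, adjusted p = 0.0433), and 10 were lower in both libraries (38.3% of all genes were). With the sexes apart the call of B2m was lost (adjusted p = 0.0605), and 5 class I genes were called lower, H2-K1, H2-D1, H2-Q4, Tapbp and Psmb8.

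Of 18 transitional genes, 1 was called, Itga2, at 313 and 310 CPM against 71.1 and 115 (1.79 ± 0.21, adjusted p = 0.0424), while 17 were higher in both libraries (31.8% of all genes were) with a median of 1.38. With the sexes apart 8 of them were called higher, the keratins Krt7, Krt8, Krt18 and Krt19 with Sfn, Itga2, Procr and Tnip3. With the sexes together, Krt8 was at 1924 and 2067 CPM against 838 and 1254 (adjusted p = 0.0630). Of 22 genes of glycolysis and the hypoxia response, 1 was called, Ldha, lactate dehydrogenase A (1450 and 1756 CPM against 685 and 892, 1.03 ± 0.11, adjusted p = 0.0397), and 19 were higher in both libraries. Of 9 gastric and gut genes Gkn2 was called, and 7 were higher in both libraries.

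Few genes were called in the signalling lists. Among 8 EGFR ligands and receptors, Btc, betacellulin, rose (1.39, adjusted p = 0.0492). Among 24 chemokines and cytokines, Cxcl1 and Ccl20 rose (566 and 165 CPM against 148 and 60.9, adjusted p = 0.0364, and 122 and 39.8 against 34.9 and 14.9, adjusted p = 0.0346), which attract neutrophils and CCR6-positive lymphocytes. Among 12 metalloprotease and plasminogen genes, Plaur, the urokinase receptor, rose beside Mmp3 (1.47, adjusted p = 0.0466) and Adamts1 fell (-1.63, adjusted p = 0.0272), and among 12 protease inhibitors Timp1 rose (2.27 ± 0.15, adjusted p = 0.0272). Itga9, an integrin chain that binds osteopontin, fell (-1.32, adjusted p = 0.0401). Srgn, whose proteoglycan packs granzymes into granules, was at 0.25 and 1.59 CPM against 3.16 and 12.2. In the Gzme-high cells these were 2 and 4 UMIs, so the gene passed the filter on low counts through the Gzme 0 class, and its call is not used here. In the lists of NF-kB (14 genes), ERK feedback (15) and p53 targets with CDK inhibitors (12), 0 genes were called. Nfkbia was at 390 and 225 CPM against 275 and 157 (adjusted p = 0.0997) and Cdkn2a at 189 and 90.4 against 12.5 and 56.3 (adjusted p = 0.206). With the sexes apart, the calls of Cxcl1 (adjusted p = 0.0960), Adamts1 (0.0880) and Itga9 (0.0679) were lost, and those of Ccl20, Plaur, Timp1 and Btc held.

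Several markers of other cell types were higher in the comparator. Of 5 ciliated markers Tppp3 and Ccdc153 were called lower, and of 3 airway markers Scgb3a2, which had 0 and 0.796 CPM in the Gzme-high cells against 17.8 and 17.7. Ccdc153 and Scgb3a2 had between 0 and 2 UMIs in the Gzme-high cells and passed the filter on low counts through the Gzme 0 class. The calls of these 2 genes are therefore not used here. Muc5b, an airway mucin, lay the other way, at 48.3 and 1.59 CPM (386 and 4 UMIs) against 0.223 and 0.554 (adjusted p = 0.127). Transitional cells held 0 and 1 UMIs of Muc5b. It passed the filter on low counts there through the Gzme-high class, and its call against them is not used here. The call of Tppp3 was lost with the sexes apart (adjusted p = 0.105). All 4 mesenchymal markers tested were lower in both libraries. None of the 4 mesenchymal markers was called. The Gzme 0 class thus held RNA of such cells, and their part in the other falls was not tested beyond leaving out cells with Col1a1, Pecam1 or Foxj1. Of the 87 genes followed through the settings, 53 lost their call there. It changed the log2 fold change of Mmp3 from 6.12 to 6.09 (adjusted p = 0.0575, the highest over all settings) and that of Cbr2 from -4.56 to -4.44 (adjusted p = 0.0418, and 0.160 without the library block).

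Cell cycle genes lay on opposite sides of 0 in the sets. Of 13 S-phase and 14 mitosis genes 0 passed the test. Ube2c, a mitotic ubiquitin-conjugating enzyme, was at 57.4 and 69.3 CPM in the Gzme-high cells of replicates 1 and 2 against 191 and 60.5 in Gzme 0 cells. All 14 mitosis genes were lower in the female and in the male Gzme-high cells of replicate 1, with medians of -2.10 and -0.31 on the log2 scale, and all 14 were higher in the male cells of replicate 2, with a median of 0.58. The S-phase genes had medians of -1.29, -0.16 and 0.39. No test across sets was made, and each set is a single sum.

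**Figure D4:**
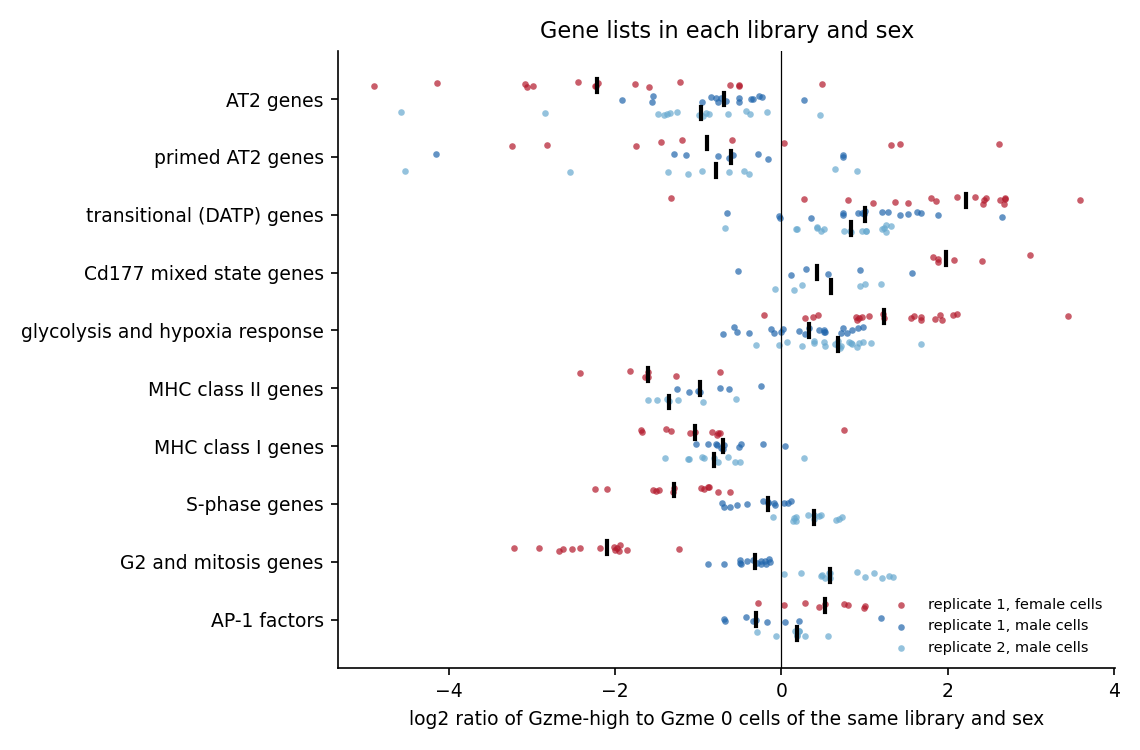
Log2 ratio of Gzme-high to Gzme 0 cells of the same library and sex for the genes of 10 lists. Each point is 1 gene, colours are the library and sex sets, and black bars are medians. MHC class II genes lie below 0 in all sets, whereas the mitosis genes have medians of -2.10, -0.31 and 0.58.

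The second comparison asks what set Gzme-high cells apart from other cells with transitional genes, the 436 and 553 Gzme 0 cells with a UMI of both Itga2 and Cldn4. Here 159 of 11455 genes (1.39%) passed, 78 higher (0.681%) and 81 lower (0.707%), and 4 passed without the library block. Of the 15 largest falls against all Gzme 0 cells, 1 passed the test here. Lyz2 was at 2137 and 1176 CPM against 2423 and 855, Scd1 at 429 and 237 against 620 and 301, and Hc at 73.7 and 14.1 against 87.3 and 19.1. None of these 3 genes passed the test, with log2 differences of 0.14 ± 0.20, -0.44 ± 0.16 and -0.32 ± 0.17 (SE). Mme was at 3.68 and 0.414 CPM against 9.49 and 1.5 (-1.42 ± 0.43, adjusted p = 0.178), and Cbr2 at 20.5 and 4.97 against 39.8 and 0.806, in opposite directions in the libraries. Retnla was the one called lower (208 and 22.8 CPM against 444 and 74.2, -1.36 ± 0.20, adjusted p = 0.0414), but its call was lost with the sexes apart (adjusted p = 0.397), with log2 ratios of -0.45, 0.28 and -1.99 in female and male cells of replicate 1 and male cells of replicate 2.

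Apoa1, Gkn2, Mmp3, Tmem252, Vcam1 and Ckb remained higher than in transitional cells. Apoa1 was at 180 and 162 CPM against 6.16 and 4.37 (5.02 ± 0.20, adjusted p = 0.000900), Gkn2 at 557 and 622 against 25.5 and 42.7 (4.15 ± 0.22, adjusted p = 0.00317) and Mmp3 at 318 and 182 against 13.8 and 13.5 (4.15 ± 0.24, adjusted p = 0.00456). Vcam1 was 2.74 ± 0.30 higher (adjusted p = 0.0240), Tmem252 3.01 ± 0.30 (adjusted p = 0.0198) and Ckb 2.15 ± 0.30 (adjusted p = 0.0391). The other 4 rises were not called here, with log2 differences of 0.58 for Ly6a, 0.51 for Angptl4, 0.11 for Sgms2 and 0.05 for Igfbp4 (adjusted p = 0.223, 0.300, 0.786 and 0.944), the last of opposite sign in the libraries. Of the label genes, Spp1 was at 15410 and 5927 CPM against 635 and 1352, Mcpt8 at 2006 and 520 against 23.2 and 17.0, and Mmp13 at 263 and 124 against 51.8 and 21.4.

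Further genes were called higher than in transitional cells, several of them genes of plasma proteins. Trf, transferrin, was at 4727 and 2072 CPM against 273 and 447 (3.16 ± 0.46, adjusted p = 0.0391), Rbp4, the retinol carrier, at 571 and 468 against 54.6 and 146 (2.53 ± 0.40, adjusted p = 0.0491), Itih2, an inhibitor heavy chain, at 58.1 and 55.5 against 5.55 and 10.2 (2.91 ± 0.27, adjusted p = 0.0168) and Fetub, fetuin B, at 119 and 88.7 against 18.5 and 27.2 (2.20 ± 0.26, adjusted p = 0.0240). Pf4, a platelet chemokine, was at 388 and 139 against 59.3 and 31.3 (2.44 ± 0.20, adjusted p = 0.0139). These 5 genes are no list fixed for the purpose, and were taken from the called genes by their size. Of 6 genes of the Cd177 mixed state, 3 were called higher: Cd177 (98.9 and 87.5 CPM against 17.1 and 24.3, 2.20 ± 0.22, adjusted p = 0.0192), Cd38, an ectoenzyme (83.3 and 85.8 against 14.4 and 28.8, 2.05 ± 0.25, adjusted p = 0.0278) and Meg3, a maternally expressed long RNA (593 and 938 against 140 and 396, 1.66 ± 0.24, adjusted p = 0.0391). Over all genes 0.681% were called higher. Cells with at least 10 UMIs of Dlk1 made up 32.9% and 8.59% of the Gzme-high cells but 4.36% and 3.62% of the transitional cells. The part of such cells in the calls of Cd177, Cd38 and Meg3 was not tested. Sftpb, surfactant protein B, was higher as well (7946 and 9080 CPM against 2902 and 4290, 1.27 ± 0.18, adjusted p = 0.0391).

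Genes lower than in transitional cells included members of several lists, while 0.707% of all genes were called lower. The comparator was chosen by the transitional genes Itga2 and Cldn4, which are not counted here. Of 16 transitional genes 2 were called lower, the stress-response genes Nupr1 (337 and 377 CPM against 1159 and 1000, -1.60 ± 0.18, adjusted p = 0.0240) and Ndrg1 (60.5 and 48.9 against 224 and 99.5, -1.48 ± 0.24, adjusted p = 0.0494). Of 15 ATF4 targets 2 were lower, Phgdh of serine synthesis (46.2 and 81.7 against 302 and 223, -2.10 ± 0.31, adjusted p = 0.0405) and the asparagine synthetase Asns (16.4 and 31.5 against 69.0 and 91.1, -1.82 ± 0.20, adjusted p = 0.0240). Of 17 adhesion genes 2 were lower, the laminin chains Lama3 and Lamb3 (-2.94 and -1.16, adjusted p = 0.0391 for both), and the plasminogen activators Plat and Plau (-1.68 and -2.21, adjusted p = 0.0405 and 0.0299) were lower. With the sexes apart the call of Plat was lost (adjusted p = 0.0743) and that of Plau held (adjusted p = 0.0141). Capg, an actin-capping protein, fell by 2.30 on the log2 scale (adjusted p = 0.00762) and Slc20a1, a phosphate transporter, by 2.89 (adjusted p = 0.0316).

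**Figure D5:**
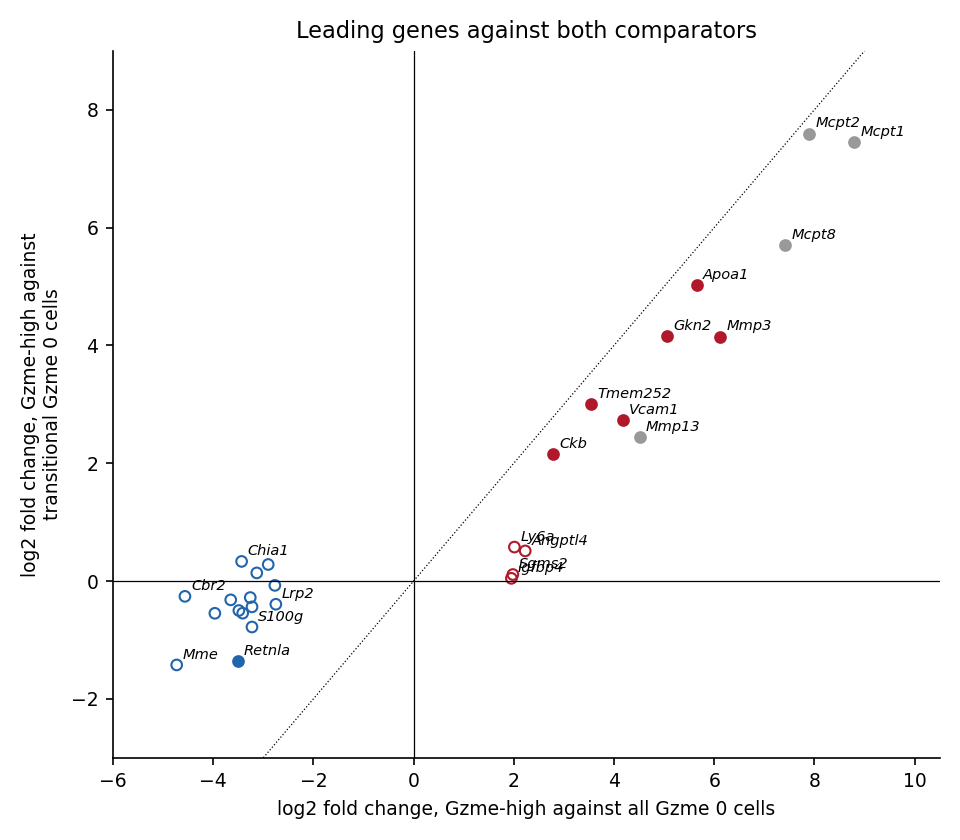
Fitted log2 fold changes of the leading genes in Gzme-high cells against all Gzme 0 cells (x axis) and against transitional Gzme 0 cells (y axis). Red genes rose and blue genes fell against all Gzme 0 cells, grey genes are label genes described without a test, filled red or blue symbols passed the test on the y axis, and the dotted line marks equal values. Both comparisons share the Gzme-high sums. The falls lie between -1.42 and 0.33 on the y axis, Retnla alone among them filled, and 6 of the rises keep 2.15 to 5.02.

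The last comparison set the Gzme-high cells against 161 and 189 Gzme 0 cells with at least 10 UMIs of Dlk1, and 2247 of 10022 genes (22.4%) passed, 1189 higher (11.9%) and 1058 lower (10.6%). Of 18 transitional genes 17 were higher, among them Itga2 (308 and 309 CPM against 19.5 and 35.4, 3.52 ± 0.21), Cldn4 (436 and 326 against 44.3 and 37.4, 3.21 ± 0.14) and Krt8 (1893 and 2057 against 615 and 626, 1.67 ± 0.12), with adjusted p of 5.12e-05, 1.36e-05 and 0.000112. Of 16 AT2 genes 14 were lower, and of 7 MHC class II genes all 7. Of 19 glycolysis genes 14 were higher. Of 8 gastric genes 7 were higher, with Gkn2 at 540 and 595 CPM against 17.1 and 3.93 and Ctse, the gastric protease cathepsin E, at 182 and 58.2 against 1.34 and 1.64. Ctse passed the filter on low counts through the Gzme-high class, as others of the 7 may have. The call of Ctse and the count of 7 are therefore not used here. Genes of the other lists may have passed the filter in that way too, which was not checked. Their counts of higher genes therefore only describe the sums. Of 7 EGFR ligands and receptors 5 were higher, Areg, amphiregulin, at 2852 and 1987 CPM against 386 and 275. The mixed-state list was split. Sox9 was higher (69.1 and 30.1 CPM against 15.1 and 12.1) and Meg3 was lower (576 and 897 against 938 and 1797, adjusted p = 0.00324). Cd177 was at 96.0 and 83.6 CPM against 168 and 89.5 (adjusted p = 0.0934). Hmga2, a fetal chromatin protein, was at 134 and 51.1 CPM against 3.02 and 1.31. It passed the filter on low counts through the Gzme-high class, and its call is not used here. Cdkn2a, the gene of p16 and p19ARF, was at 186 and 89.9 CPM against 19.1 and 10.2 (adjusted p = 2.04e-05). Mcpt1 and Mmp3 had 0 UMIs in the Dlk1-high cells of both libraries.

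The Gzme-high cells also differed among themselves. Mcpt8 was seen in 84.4% and 57.8% of the cells, Mcpt2 in 67.6% and 28.1% and Mcpt1 in 39.6% and 5.47%. All 3 mast cell protease genes were seen in 120 cells (34.7%) of replicate 1 and in 2 (1.56%) of replicate 2, and none of them in 37 (10.7%) and 44 (34.4%). In replicate 1, 134 of 137 cells with Mcpt1 had Mcpt8 (97.8%), against 75.6% of cells without it, and within its female cells 98.5% against 83.5%. In replicate 2 it was 5 of 7 cells (71.4%) against 57.0%, and within its male cells 60% (of 5 cells) against 59.8%, so the difference was not seen there. After each cell was thinned to 5000 UMIs, Mcpt8 was seen in 74.7% and 43.3% of the cells and Spp1 in 85.9% and 74.8%, so the gap between the libraries was also seen at equal depth. A UMI of Spp1 was seen in 92.2% and 83.6% without thinning. By sex and without thinning, Mcpt8 was seen in 90.7% of female and 56.4% of male cells of replicate 1. In the male cells of replicate 2 it was seen in 59.8%, so the male cells of the libraries did not show the gap. For Spp1 the values of these sets were 97.0%, 72.7% and 89.7%.

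The leading genes were spread unequally over cells. Mmp3 was seen in 18.2% and 8.59% of the cells, and the 10 highest cells held 70.6% and 99.8% of its UMIs. For Mmp13 the shares were 31.8% and 14.8% of cells, and 32.5% and 94.0% of UMIs. The 2 genes were often seen in the same cells. Mmp13 was found in 63.5% of cells with Mmp3 and 24.7% of cells without it in replicate 1, and in 54.5% (of 11 cells) and 11.1% in replicate 2. Within the male cells of replicate 1 these values were 72.7% (of 11 cells) and 6.82%. Apoa1 was seen in 32.1% and 24.2% of cells, and the 10 highest held 51.3% and 82.6% of its UMIs. Gkn2 was seen in 47.7% and 44.5% of cells and Vcam1 in 72.5% and 74.2%, and Gkn2 was found in 57.8% of cells with Vcam1 against 21.1% without in replicate 1, and in 51.6% against 24.2% in replicate 2. No test was made of these shares, and deeper cells can hold more of both genes. Tff1, a gastric trefoil peptide, was carried by 4.62% and 3.91% of cells, and 1 cell held 33.3% and 55% of its UMIs. The fitted rises of Mmp3, Apoa1 and Gkn2 therefore describe sums to which a minority of cells gave most, while Vcam1 and Spp1 were seen in most cells.

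Among the 5119 genes seen in at least 25% of the Gzme-high cells of both libraries, those whose share of a cell's UMIs ran most like that of Gzme were Mcpt8 (Spearman's rho 0.63 and 0.40), Mcpt2 (0.56 and 0.32), Ckb (0.31 and 0.31) and Itga2 (0.30 and 0.31), by the lower of the rho values over the 346 and 128 cells. Within the female cells of replicate 1 they were 0.53, 0.52, 0.25 and 0.20, and within its male cells 0.45, -0.09, 0.18 and 0.19. Ager, an AT1 gene, ran the opposite way, at -0.41 and -0.28. Within the female and the male cells of replicate 1 Ager was at -0.23 and -0.23, and within the male cells of replicate 2 at -0.30. These values describe cells of 1 library each, which share depth and mice, and are given without a test.

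Over classes of Gzme UMIs the levels of Mcpt8 and Lyz2 changed by degrees. In replicate 1 Mcpt8 was at 6.76 unscaled CPM in cells with 0 Gzme UMIs, 50.7 in the 371 cells with 1 to 3, 234 in the 82 cells with 4 to 9 and 1944 in the Gzme-high cells. In replicate 2 it was at 5.28, 69.2 (206 cells), 84.4 (73 cells) and 493. Just outside the limit, at 7 to 9 UMIs, Mcpt8 was at 326 CPM (33 cells) and 58.2 CPM (25 cells), and just inside, at 10 to 12 UMIs, at 431 (15 cells) and 90.6 (26 cells). Vcam1 was also higher just inside the limit in both libraries (159 and 201 CPM against 114 and 148), as was Mcpt2 (192 and 28.1 against 37.2 and 12). In replicate 1 the highest cell just inside held 34 of 48 UMIs for Vcam1 and 48 of 58 for Mcpt2. There Vcam1 was seen in 26.7% of cells just inside and 51.5% just outside, and Mcpt2 in 26.7% and 30.3%. Spp1 and Gkn2 were lower just inside in both libraries. Spp1 was at 4931 and 3279 CPM just outside and 3061 and 2682 just inside, and Gkn2 at 143 and 279 outside and 23.2 and 168 inside. Apoa1 was at 257 and 12 outside and 16.6 and 73.4 inside, in opposite directions in the libraries. Lyz2 ran the other way, at 21603, 10090, 4644 and 2071 CPM over the 4 classes of replicate 1 and at 8655, 2237, 1907 and 1116 in replicate 2, though in replicate 1 it was at 3756 just outside the limit and 5422 just inside. Itga2 was seen in 16.4%, 41.5%, 75.6% and 91.3% of the cells of these classes in replicate 1 and in 28%, 69.4%, 79.5% and 89.8% in replicate 2, and deeper cells enter the higher classes more easily. Whether the cells at low Gzme UMIs form 1 range with the Gzme-high cells or mix other groups and free RNA was not tested.

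The same rule found 23 cells in the 8 libraries it was not made for. No cell passed in either Confetti library, which allows a share of up to 0.0766% of RFP+ and 0.0728% of YFP+ cells. The Confetti cells were shallower, with a median of 4000.5 and 3251 UMIs against 15685 and 13199 in the 2-week RFP libraries, so a limit of 10 UMIs asks for a higher share of Gzme there. None passed in 4-day RFP replicate 1 or in the 4-day YFP libraries, and 4 cells (0.253%) passed in 4-day RFP replicate 2. In the YFP+ cells of the 2-week lungs of the mutant line, 10 cells (0.232%) passed in replicate 1 and 9 (0.791%) in replicate 2. Haemoglobin RNA was found at 3 or more UMIs in 15 (4.34%) and 2 (1.56%) of the 474 cells against 2.06% and 0.413% of Gzme 0 cells. Leaving out such cells, a setting chosen after seeing the data, gave 391 called genes against all Gzme 0 cells. Of the barcodes of Gzme-high cells, 3 of 346 and 2 of 128 occurred in another library, and none of them was Gzme-high there.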

How the data were processed

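Cells were sorted from distal lung as EpCAM+RFP+ or EpCAM+YFP+ and sequenced as 10 droplet libraries. The mutated gene is not reported here. The deposited values were raw UMI counts per gene and barcode, from reads that the authors mapped to GRCm38 with Cell Ranger (3.1.0 per the submitters' processing notes, 5.0.1 per the file headers), after FastQC 0.11.3 and MultiQC 1.8. The labels give 3' v2 chemistry, whereas the methods give v3. UMI counts remove PCR copies, and intervals (exact binomial, 95%) and limits for a count of 0 (3 counts) cover counting error only.

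Cells with at least 1000 genes, at most 50000 UMIs and at most 15% mitochondrial UMIs were kept. The authors' cell types were not used here, and no clusters were made: Gzme-high cells had 10 or more Gzme UMIs and no Ptprc UMI. Comparators were cells of the same library with 0 Gzme and 0 Ptprc UMIs: all of them, those with a UMI of both Itga2 and Cldn4 (transitional), and those with 10 or more Dlk1 UMIs. The members and gene lists were chosen with earlier results of these data known. Scrublet scores were computed, but its own threshold marked 2 (0.0471%) and 13 (0.368%) cells and did not work. At the rate expected from cell number it marked 17 and 5 members (4.91% and 3.91%) against 2.82% and 1.78% of Gzme 0 cells, and these cells were removed in an alternative.

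Counts were summed per library and class. Each comparison was fitted on its own 4 sums with edgeR 4.0.16 (R 4.3.3; TMM, filterByExpr, quasi-likelihood test, library as a block, Benjamini-Hochberg adjustment over all genes tested, threshold 0.05). Every adjusted p in the text is from this edgeR test. The block pairs classes of the same library, hence of the same pool of mice, but not of the same mouse: in replicate 1 the classes differed in their share of female cells. Alternatives used DESeq2 1.42.0, limma 3.58.1 and other limits. On simulated counts of the comparison with Gzme 0 cells, 53.5% of 200 genes changed by a log2 fold of 1 (13094 genes tested) and 90.5% of 200 changed by 2 (13065 genes tested) were recovered. Cells were called female with a UMI of Xist and none of Ddx3y, Eif2s3y, Kdm5d and Uty.

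Named genes were the label genes, the locus, the 15 largest rises and falls that passed the test in the same direction in both libraries with a mean of at least 50 CPM in the higher class, and up to 4 genes of each list. Genes named in the comparisons with transitional and Dlk1-high cells, and genes compared within the members, were chosen after their values were seen. Promoters were 250 bases before each start, from RefSeq (GRCm38.p6). Tables were handled with Python 3.11.15, scanpy 1.11.5, numpy 2.4.6 and pandas 2.3.3.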

Additional observations from a re-analysis of the deposited data

Results flagged for a closer look

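Cells that met the Gzme-high rule were also found outside the mutant 2-week libraries. They made up 0.253% of cells in 4-day RFP replicate 2 (4 cells, 14 to 64 Gzme UMIs), 0.232% in 2-week YFP replicate 1 (10 cells, 14 to 252 UMIs) and 0.791% in 2-week YFP replicate 2 (9 cells, 11 to 129 UMIs), while neither Confetti library held one. The 10 YFP+ cells of replicate 1 were at 9788 unscaled CPM of Spp1 against 6.90 in the 4289 Gzme 0 cells of that library, 1477 against 0.151 of Mcpt8, 474 against 0.829 of Gkn2, 554 against 6.03 of Cldn4 and 923 against 33157 of Lyz2. Mcpt2 was at 1704 CPM and Mcpt1 at 634 CPM, with 0 UMIs of both in the Gzme 0 cells, and no UMI of Mmp3 was found. The median depth of these 10 cells was 15977.5 UMIs against 5829. Of those with a sex call, 6 were female and 0 male in a library of 26.4% female cells. The 9 YFP+ cells of replicate 2 were lower in the label genes, at 1266 CPM of Spp1 against 128 in the 1117 Gzme 0 cells of that library, 116 against 0.778 of Mcpt8 and 55.3 against 0.518 of Mcpt2, with 1 UMI of Mcpt1. They were at 707 against 1.43 CPM of Gkn2, 254 against 14.6 of Cldn4 and 636 against 26398 of Lyz2.

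In the female Gzme-high cells of replicate 1, Tyms, thymidylate synthase, was -1.30 and Mcm7, a replication helicase subunit, -0.76 on the log2 scale against Gzme 0 cells of the same set. In the male cells of replicates 1 and 2, Tyms was 0.03 and 0.73 and Mcm7 0.08 and 0.39. The sets thus lay on opposite sides of 0, and the difference between them was not tested.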

How the results depend on the processing

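The number of genes called against all Gzme 0 cells (276) was 0 without the library block, 3 without cells holding Col1a1, Pecam1 or Foxj1, 568 without high Scrublet scores, 645 against deep Gzme 0 cells, 779 with cells weighted equally (limma), 893 with DESeq2, 977 with Gzme at 10 or more per 10000 UMIs, 1078 and 1167 with limits of 20 and 5 UMIs, 1619 without a filter on low counts and 1627 with 3 classes in the fit. Alternatives chosen after seeing the data gave 391 without cells with 3 or more haemoglobin UMIs, 426 with the block split by sex and 999 without Dlk1-high cells. Against transitional cells (159) it was 4 without the block, 74 without high Scrublet scores, 78 per 10000 UMIs, 353 split by sex (added after seeing the data) and 1228 without a filter. Against Dlk1-high cells (2247) it was 603 without the block and 865 with DESeq2. The 474 members became 585, 362 and 381 with limits of 5, 20 and 10 per 10000 UMIs, and 128 to 346 with 1 library left out. Thinned to 2000 rather than 5000 UMIs, Mcpt8 was seen in 68.2% of cells of replicate 1, and Vcam1 in 27.2% and 22.7% of those of replicates 1 and 2.

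Of 1390 values of single genes against Gzme 0 cells over all alternatives, 135 lost their call, 79 gained one, 9 reversed in direction and 3 of a label gene described without a test moved. Mcm7 became 0.0236 with limma. Without replicate 1 or 2, respectively, the log2 ratio was -0.018 or 1.74 for Meg3, 0.66 or -0.99 for Tyms, 0.0084 or -0.72 for Slbp, 0.24 or -0.76 for Pcna, 0.36 or -0.54 for Mcm7, 0.19 or -1.73 for Ube2c, 0.86 or -1.32 for Birc5 and 0.44 or -1.37 for Cdk1. Against transitional cells Lyz2 became -0.14 with a limit of 20 UMIs, -0.081 per 10000 UMIs and -0.52 with Itga2 and Cldn4 in both classes (added after seeing the data), and was 0.46 or -0.18 without replicate 1 or 2, where Krt8 was -0.30 or 0.012. The cause of these changes was not tested. With 1 library left out no test was possible, as no residual degrees of freedom remained. Depth limits genes near 1 UMI per class, among them the other granzymes.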

Other observations

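Other lists set Gzme-high cells apart from Dlk1-high Gzme 0 cells, in the edgeR test in which 22.4% of all genes were called. Genes with few UMIs in the Dlk1-high cells may have passed the filter on low counts through the Gzme-high class. This was not checked, so the counts of higher genes are a description only. Of 11 p53 targets and CDK inhibitors, 8 were higher (Cdkn1a, Mdm2, Ccng1, Phlda3, Zmat3, Bax, Cdkn2a and Cdkn2b) and Cdkn1b was lower. Of 14 genes of osteopontin receptors and matrix adhesion, 10 were higher, the integrin chains Itgav, Itgb1, Itgb6, Itga2, Itga3, Itga6 and Itgb4 among them, and Itga9 was lower. Of 9 AP-1 factors, 5 were higher (Fos, Fosl1, Junb, Atf3 and Maff), and of 10 chemokines and cytokines 7 (Cxcl1, Cxcl5, Cxcl16, Ccl20, Csf2, Lif and Tgfb1). Of 14 mitosis genes, 4 were lower, Mki67 with -1.02 on the log2 scale (adjusted p = 0.0334).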
